A study of Mus musculus with 6 samples.

Results

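The 10 genes described here encode small heat shock proteins and chaperones of the sarcomere: Hspb1, Hspb2, Hspb3, Hspb6, Hspb7, Hspb8, Cryab, Bag3, Unc45b and Smyd1. They were taken by gene symbol from the 23367 entries of a single expression table, and each symbol had 1 entry. The table covers 6 libraries of polyadenylated RNA from the gastrocnemius, a calf muscle, of wild-type FVB mice. E18.5 and PN2 are 1 library each from pooled mice, of both sexes at E18.5 and male at PN2, while the PN14 (replicates 1 and 2), PN28 and adult (22 weeks) libraries each came from 1 male mouse. Only PN14 was replicated, so every stage difference also contains the difference between libraries. RNA of whole muscle was sequenced, so fewer cells of a type and less RNA per cell cannot be told apart.

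Small heat shock proteins bind partly unfolded proteins without using ATP and hold them until other chaperones refold or remove them. They share the alpha-crystallin domain and assemble into oligomers, often of mixed members. Striated muscle holds more of them than most tissues, and mutations in CRYAB, HSPB8 and BAG3 cause human myopathies in which desmin and Z-disc proteins aggregate. UNC45B and SMYD1 belong to a different branch of muscle proteostasis. UNC45B, together with HSP90, folds the myosin motor, and SMYD1 is a muscle methyltransferase that binds myosin and is needed for thick filament assembly.

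Heat shock factors bind inverted repeats of GAA, and the promoters are shown because genes that moved in opposite directions over development carried the same 8 letters there. RefSeq promoter windows on GRCm38.p6 (250 bases before to 50 bases after the start site) matched 8 of the 10 genes, all but Hspb2 and Cryab. The letters GAANNTTC, which read the same on both strands, occurred in at least 1 window of 5 of these 8 genes, against 9.04% of the 27025 genes with a window. The other arrangement, TTCNNGAA, occurred in 0 of the 8 and in 9.60% of all genes. Each sequence below is 30 bases, 5′ to 3′ on the strand of the gene, with GAANNTTC in capitals.
Hspb1 (chr5:135887791-135887820, plus strand, first capital at -117 from the start site): cttcaacaagaGAAGTTTCcagatgggggc
Hspb6 (chr7:30553170-30553199, plus strand, first capital at -120 from the downstream start site): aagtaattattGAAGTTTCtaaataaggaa
Hspb8 (chr5:116422844-116422873, minus strand, first capital at transcribed base 3): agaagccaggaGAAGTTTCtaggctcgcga
Bag3 (chr7:128523603-128523632, plus strand, first capital at transcribed base 43): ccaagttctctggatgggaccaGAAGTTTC
Hspb3 (chr13:113663882-113663911, minus strand, first capital at -224 from the start site): ctccccgaatgGAATTTTCaggcagaggga
The match was GAAGTTTC in Hspb1, Hspb6, Hspb8 and Bag3 and GAATTTTC in Hspb3, and Hspb1 held a further one, GAACCTTC, at -97. Searched on both strands, TATAAA occurred in the windows of Hspb3, Hspb6 and Smyd1 (15.7% of all genes), the E-box letters CANNTG in those of Hspb1, Hspb3, Hspb7, Hspb8 and Unc45b (74.99%), the MEF2 motif in that of Hspb3 (3.70%), and the CArG box in 0 of the 8 (1.81%). A match is a description of the sequence and not a measured binding site.

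All 10 genes were abundant at every stage. Their counts ranged from 3978 (Hspb3 in the adult) to 94726 (Cryab in PN14 replicate 1), in libraries with 125402932 to 157868359 counts on genes. Their FPKM, a level scaled to transcript length and library size, ranged from 29.9 for Bag3 at E18.5 to 667 for Cryab in PN14 replicate 1. Ranked by FPKM among all entries of the library, these values stood at rank 2335 and rank 93. All 10 passed the filter on low counts that left 16882 genes for testing.

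**Figure D1:**
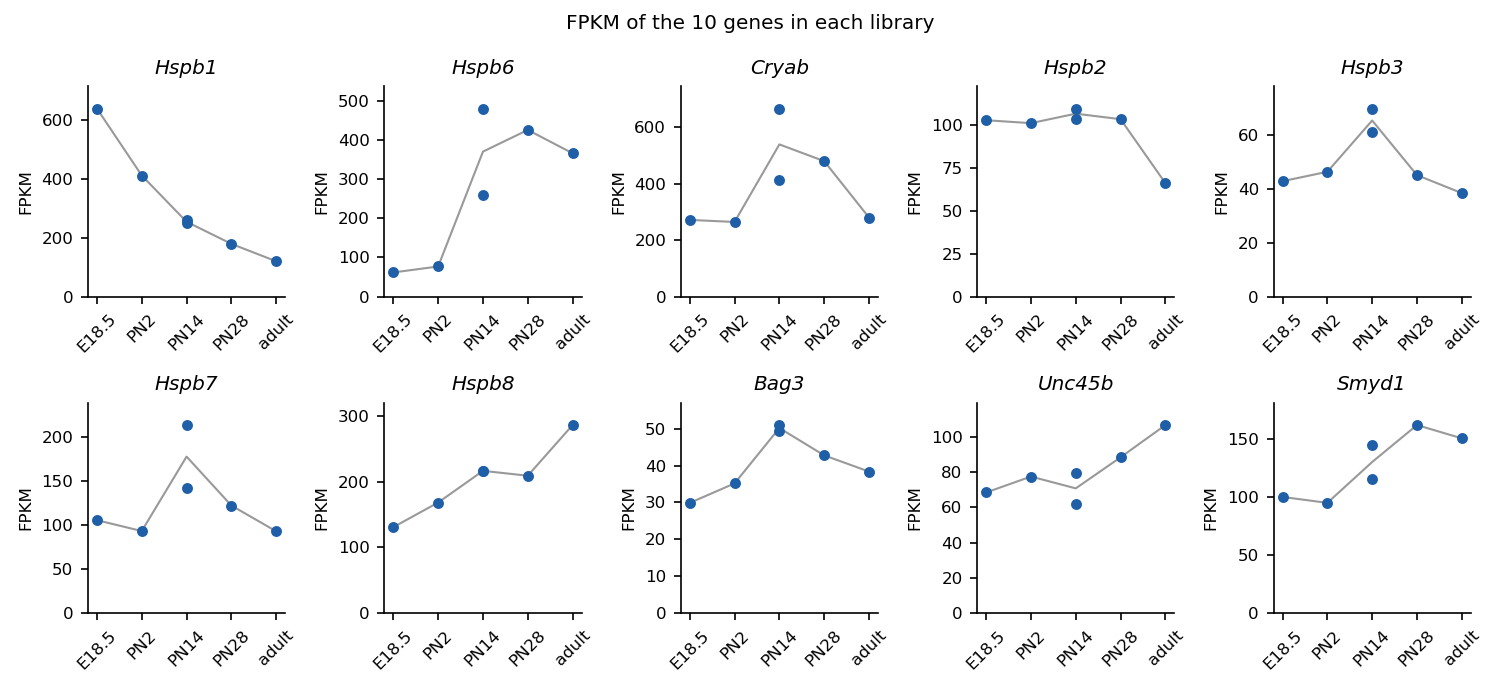
FPKM of each gene (vertical axis, from 0, a scale of its own in each panel) in each library by stage, with 1 point per library and a line through the stage means. Hspb1 is highest at E18.5 and lowest in the adult, Hspb6 sits between 61.5 and 76.6 before PN14 and between 260 and 480 from PN14 on, and Cryab, Hspb3, Hspb7 and Bag3 are highest at PN14.

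Over development Hspb1 and Hspb6 exchanged places. Hspb1 (HSP27 in the older literature, an actin-associated chaperone) had 638 FPKM in the E18.5 library, 411 in PN2, 259 and 249 for PN14 replicates 1 and 2, 179 in PN28 and 120 in adult muscle. By FPKM it was lower at each later stage, and the PN14 pair, at 254 ± 7.11 FPKM (SD, n = 2), lay below PN2 and above PN28. Hspb6 (HSP20, a target of cyclic nucleotide-dependent kinases) had 61.5 FPKM in the E18.5 library, 76.6 in PN2, 480 and 260 for the PN14 pair, 425 in PN28 and 366 in adult muscle. All libraries from PN14 on were above both earlier ones, and the PN14 replicates differed from each other by 1.85-fold, so PN28 and adult lay within the range of the PN14 pair.

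In the statistical test, log2 fold changes came from counts normalized between libraries by the TMM method, and calls required an adjusted p under 0.05 together with a fold of at least 2 in either direction. From E18.5 to adult Hspb6 rose by 3.60 in log2 units (standard error 0.642, adjusted p = 0.00591, quasi-likelihood test of edgeR, Benjamini-Hochberg adjustment). Hspb1 fell by 1.39 on the log2 scale over the same span (standard error 0.319, adjusted p = 0.0137, the same edgeR test). From PN2 to PN14 Hspb6 rose by 2.97 in log2 units (standard error 0.588, adjusted p = 0.0169, edgeR). Without a test that log2 difference was 2.86, and it was 2.29 without PN14 replicate 1 and 3.43 without replicate 2. Hspb1 was not called in that interval, at -0.03 with a 95% interval from -0.69 to 0.64, although its FPKM was lower. With library size alone in place of TMM its value was -0.69, and the median of all genes tested moved to -0.66 as well. Among the alternatives for PN2 to PN28, Hspb1 was called with library size alone only, at -1.20 against -0.31 with TMM.

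The exchange did not depend on scaling between libraries, because it also appeared in shares within each library. Of the summed FPKM of the 7 small heat shock protein genes, Hspb1 took 47.2% in the E18.5 library, 35.4% in PN2, 12.9% and 17.1% for the PN14 pair, 11.4% in PN28 and 9.57% in adult muscle. Hspb6 took 4.54%, 6.60%, 23.9%, 17.9%, 27.2% and 29.3% in the same libraries. Hspb6 thus had 0.0963 times the FPKM of Hspb1 at E18.5 and 3.06 times in the adult. The sum itself lay between 1160 FPKM (PN2) and 2005 FPKM (PN14 replicate 1). As a share of all FPKM in a library it ran from 0.228% (adult) to 0.342% (PN14 replicate 1). Leadership passed from Hspb1 at E18.5 and PN2 to Cryab at PN14 and PN28 and to Hspb6 in the adult.

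**Figure D2:**
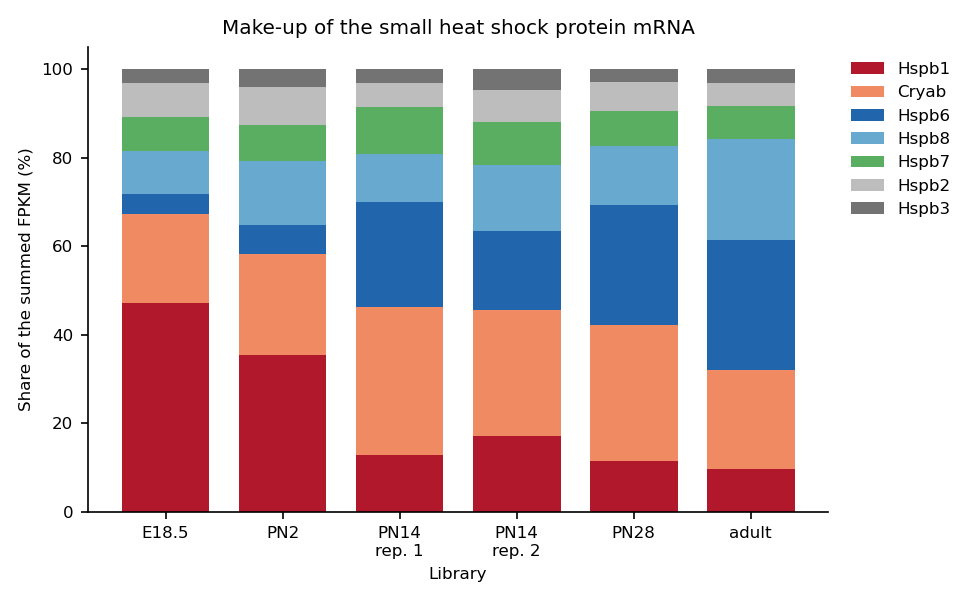
Share of the summed FPKM of the 7 small heat shock protein genes taken by each gene (vertical axis, percent) in each library. The Hspb1 segment shrinks from 47.2% at E18.5 to 9.57% in the adult, while the Hspb6 segment grows from 4.54% to 29.3% and that of Hspb8 from 9.66% to 22.9%.

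In the mm9 annotation (GENCODE M1) Hspb1 lies on chromosome 5 from 136363789 to 136365433, with up to 4 exons, and no other gene overlaps it. Hspb6 lies on chromosome 7 from 31337197 to 31340462, with up to 3 exons, and its exons share 119 bases with BC053749 and 3 bases with Lin37 on the opposite strand. Both neighbours were low, at 1.06 to 3.05 and 4.56 to 8.43 FPKM, and by FPKM both were lower at PN14 than at PN2. Their values with TMM are not given here, and their part in the Hspb6 counts was not tested. Whether the counting used strand is not given in the sources used here.

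Cryab, Hspb2, Hspb3 and Hspb7 had their highest FPKM in a PN14 library and lower FPKM in the adult, as did Hspb6 and Bag3. Cryab, which encodes alphaB-crystallin, a chaperone of desmin and titin, had 272 FPKM in the E18.5 library, 264 in PN2, 667 and 412 for the PN14 pair, 480 in PN28 and 280 in adult muscle. Both PN14 libraries and PN28 were above the other libraries, and by FPKM the adult was close to E18.5. In TMM-normalized CPM Cryab stood at 212 at E18.5 and 444 in the adult, a log2 fold change of 1.07 that was not called (95% interval -0.25 to 2.39, adjusted p = 0.139, edgeR) and was called in 1 of 6 alternatives. From PN2 to PN14 Cryab rose by 1.72 in log2 units (standard error 0.501, adjusted p = 0.0472, edgeR's quasi-likelihood test), close to the threshold. Its adjusted p ranged from 3.71e-05 to 0.0584 over the 6 edgeR and DESeq2 alternatives, 4 of which called it. The PN14 spread was wide, and without replicate 1 its log2 difference (with no test) was 1.17 and without replicate 2 it was 2.12.

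Hspb7, a heart and skeletal muscle member that restrains actin polymerization, lies on chromosome 4 of mm9 from 140976694 to 140981226. It had 106 FPKM in the E18.5 library, 93.2 in PN2, 214 and 142 for the PN14 pair, 122 in PN28 and 92.9 in adult muscle. Both PN14 libraries were above the rest by FPKM, while in TMM-normalized CPM PN28 (424) lay between PN14 replicate 2 (384) and replicate 1 (692). It rose from PN2 to PN14 by 1.62 in log2 units (standard error 0.449, adjusted p = 0.0413, edgeR). Over the 6 edgeR and DESeq2 alternatives its adjusted p ranged from 5.59e-05 to 0.0529, and 4 called it. Cryab and Hspb7 were the most alike of the 45 pairs among the 10 genes, with a root mean square difference of 0.187 between their centred log2 normalized CPM over the 6 libraries.

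Hspb3, a muscle member with a single exon that forms a defined complex with HSPB2, had 42.8 FPKM in the E18.5 library, 46.3 in PN2, 60.9 and 69.7 for the PN14 pair, 45.01 in PN28 and 38.4 in adult muscle. It lies on chromosome 13 of mm9 from 114453104 to 114453884. It was highest in both PN14 libraries and rose from PN2 to PN14 by 1.15 in log2 units (standard error 0.178, adjusted p = 0.0094, edgeR). The value was 0.50 with library size alone and was not called. Hspb2, first described as the binding protein of myotonic dystrophy kinase, was nearly level in FPKM: 103 at E18.5, 101 at PN2, 109 and 103 for the PN14 pair, 103 in PN28 and 66.0 in adult muscle. By FPKM the adult alone stood apart. In TMM-normalized CPM the perinatal libraries were the lowest, at 53.6 (E18.5) and 53.5 (PN2), beside 101 and 78.9 for the PN14 pair, 102 in PN28 and 71.1 in adult muscle. With TMM its log2 fold change from PN2 to PN14 was 0.75 (95% interval 0.19 to 1.31, adjusted p = 0.0528, edgeR). From PN2 to PN28 it was 0.93 (adjusted p = 0.0394, edgeR), under the fold that a call required, and Hspb2 was not called in any comparison. Hspb2 had between 1.48 times (PN14 replicate 2) and 2.40 times (E18.5) the FPKM of its partner Hspb3.

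Hspb2 and Cryab are neighbours transcribed away from each other on chromosome 9 of mm9, Hspb2 from 50559177 to 50560459 on the minus strand and Cryab from 50560863 to 50564738 on the plus strand, with 403 bases between them. Their ratio was not constant. Cryab had 2.65 times the FPKM of Hspb2 in the E18.5 library, 2.62 times at PN2, 6.09 and 3.99 times for the PN14 pair, 4.65 times at PN28 and 4.25 times in the adult. All libraries from PN14 on thus had a higher ratio than both perinatal ones. In centred log2 normalized CPM the pair ranked 18 of 45 by root mean square difference (0.429), while its Pearson correlation over the 6 libraries, 0.983, was exceeded by that of 1 other pair. The profiles thus had a like shape and unlike amplitude.

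Hspb8 and Bag3 encode proteins that work as a complex, in which HSPB8 holds a misfolded client and BAG3 links it to HSP70 and to autophagy. This route, chaperone-assisted selective autophagy, clears damaged filamin at the Z-disc. Hspb8 had 131 FPKM in the E18.5 library, 168 in PN2, 216 and 217 for the PN14 pair, 209 in PN28 and 286 in adult muscle. It was highest in the adult, unlike the other small heat shock protein genes. From E18.5 to adult it rose by 2.16 in log2 units (standard error 0.367, adjusted p = 0.0051, edgeR), and all 6 alternatives called it. The step from PN2 to PN14 was 1.03 (95% interval 0.24 to 1.81, adjusted p = 0.0561, edgeR) and was called in 3 of 6 alternatives.

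Bag3 had 29.9 FPKM in the E18.5 library, 35.2 in PN2, 49.4 and 51.0 for the PN14 pair, 42.8 in PN28 and 38.4 in adult muscle, and so was highest at PN14 by FPKM. It rose from PN2 to PN14 by 1.18 in log2 units (standard error 0.223, adjusted p = 0.0154, edgeR) and from E18.5 to adult by 1.39 (standard error 0.249, adjusted p = 0.00602, edgeR). With library size alone the values were 0.51 and 0.36, and neither was called. Hspb8 had between 4.25 and 4.88 times the FPKM of Bag3 in the 5 libraries up to PN28 and 7.45 times in the adult. The adult therefore stood apart in this ratio, which has no replicate at that stage. Hspb8 lies on chromosome 5 of mm9 from 116858500 to 116872873 and Bag3 on chromosome 7 from 135667097 to 135690491, and no annotated gene overlaps either.

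The myosin chaperone Unc45b and the methyltransferase Smyd1 were called by edgeR's quasi-likelihood test over longer spans and in no neighbouring pair of stages. Unc45b had 68.4 FPKM in the E18.5 library, 77.5 in PN2, 79.6 and 61.9 for the PN14 pair, 88.4 in PN28 and 107 in adult muscle. By FPKM its PN14 pair spanned the perinatal values, and PN28 and adult were above all earlier libraries. Between neighbouring stages no change was called (log2 fold changes 0.18, 0.55, 0.53 and 0.41), while from E18.5 to adult it rose by 1.67 (standard error 0.411, adjusted p = 0.0174, edgeR). With library size alone the PN2 to PN14 value turned to -0.13, and that from E18.5 to adult was 0.64 and was not called.

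Smyd1 had 100 FPKM in the E18.5 library, 94.9 in PN2, 145 and 116 for the PN14 pair, 162 in PN28 and 151 in adult muscle. All libraries from PN14 on were above both perinatal ones. From PN2 to PN14 its log2 fold change was 1.13 (95% interval 0.17 to 2.09, adjusted p = 0.0726, edgeR), called in 2 of 6 alternatives, by the Wald test of DESeq2 and by the exact test. It rose from PN2 to PN28 by 1.66 in log2 units (standard error 0.438, adjusted p = 0.0352, edgeR) and from E18.5 to adult by 1.61 (standard error 0.438, adjusted p = 0.0239, edgeR). Neither of these rises was called with library size alone. Unc45b and Smyd1 were the third most alike pair, with a root mean square difference of 0.230. Unc45b lies on chromosome 11 of mm9 from 82724052 to 82756905, with up to 20 exons, and Smyd1 on chromosome 6 from 71163934 to 71272227, with up to 10. The antisense neighbour of Unc45b that is in the table, 1700003F17Rik, stayed at or below 0.38 FPKM, and Gm12575, also antisense with 255 shared exon bases, was not analysed here.

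Set against their client, both were lower from PN14 on, while the myosin sum rose and by FPKM neither gene rose as far. The summed FPKM of 6 myosin heavy chain genes (Myh1, Myh2, Myh3, Myh4, Myh7 and Myh8) was 4134 in the E18.5 library, 5054 in PN2, 9602 and 9170 for the PN14 pair, 10975 in PN28 and 12920 in adult muscle. Per 1000 FPKM of myosin heavy chain there were 16.5 FPKM of Unc45b at E18.5 and 15.3 at PN2, and between 6.75 and 8.29 in the 4 later libraries. For Smyd1 the values were 24.2 at E18.5 and 18.8 at PN2, and between 11.6 and 15.1 later. A gene whose FPKM rose less than the myosin sum is lower in such a ratio, so the fall was not particular to these genes. Hspa8, for example, had 967 FPKM at PN2 and 620 and 826 for the PN14 pair. The share of all genes that fell in this way was not counted. The ratios to myosin lie within a library and do not depend on scaling between libraries. They carry no test.

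**Figure D3:**
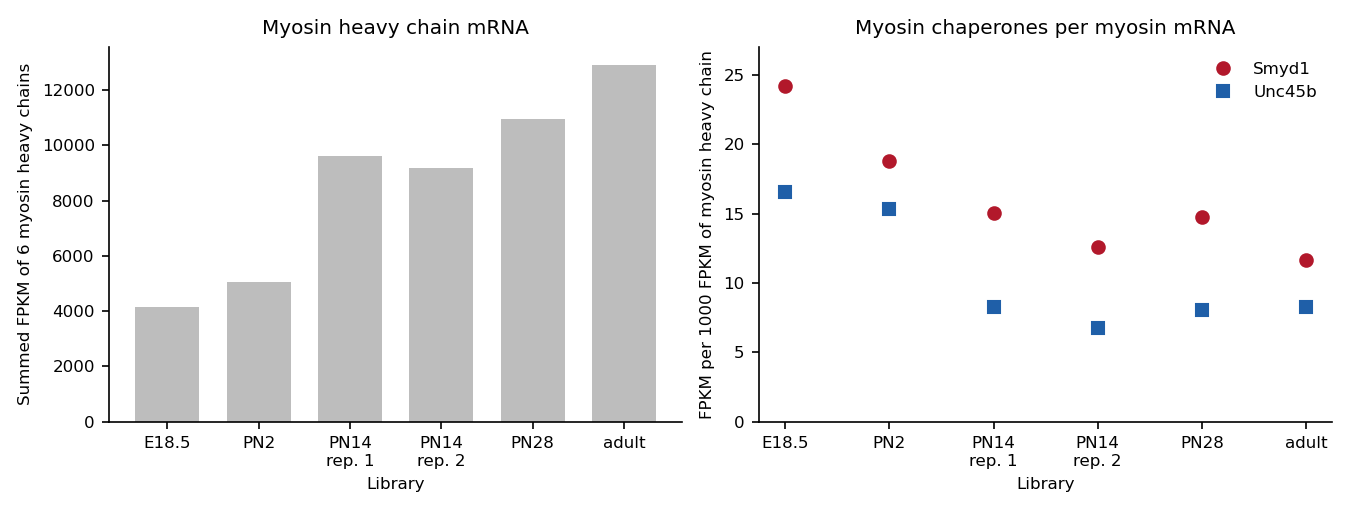
Left, summed FPKM of 6 myosin heavy chain genes in each library (bars, from 0). Right, FPKM of Smyd1 (circles) and Unc45b (squares) per 1000 FPKM of myosin heavy chain in the same libraries, with Unc45b at 16.5 and 15.3 before PN14 and at 8.29 or less from PN14 on.

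Among neighbouring stages, calls for the 10 genes lay between PN2 and PN14. In that interval 9 of 10 had higher TMM values and 5 were called, all rising: Hspb3, Hspb6, Hspb7, Cryab and Bag3. Of all 16882 genes tested, 23% were called there and 11.8% were called higher and 11.2% lower. The median log2 fold change of the 10 was 1.14, beside -0.01 for all genes tested. With library size alone 8 of 10 were higher and 2 were called, Cryab and Hspb6. Among all genes that scaling called 854 higher and 4971 lower, against 1988 and 1896 with TMM. Counted without a test, 7 of the 10 differed by at least 2-fold (27% of 13304 genes did), and 5 did when PN14 replicate 1 was left out.

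In the other neighbouring intervals 0 of the 10 were called by edgeR's quasi-likelihood test, and 0 had an unadjusted p under 0.05 in any of them. Of all genes tested, 0.0296% were called between E18.5 and PN2, 0.0178% between PN14 and PN28 and 0.521% between PN28 and adult. The Wald test of DESeq2 and the exact test of edgeR also called 0 of the 10 in these intervals. From PN14 to PN28 0 of the 10 reached 2-fold without a test, where 3.3% of genes did. The widest 95% intervals there were those of Hspb6, from -1.11 to 1.75 for E18.5 to PN2. A 2-fold change of that gene in either direction was thus not excluded. Intervals that reached 2-fold both ways were also those of Cryab (-1.35 to 1.27) and Hspb7 (-1.36 to 1.001) from E18.5 to PN2. So were those of Cryab from PN14 to PN28 (-1.11 to 1.16) and of Smyd1 from PN28 to adult (-1.02 to 1.08). From PN28 to adult 7 of 10 were lower, with Cryab at -0.64, Hspb2 at -0.52 and Hspb1 at -0.44, and Hspb8, Unc45b and Smyd1 were higher, at 0.59, 0.41 and 0.03.

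Between PN2 and PN28 4 of the 10 were called, Hspb6, Hspb8, Bag3 and Smyd1, and all rose (27% of all genes were called, 14.3% higher and 12.7% lower). Library size alone called 2, Hspb6 higher and Hspb1 lower (852 higher and 6299 lower among all genes), and Hspb8 (adjusted p = 0.0481, edgeR) was called in 3 of 6 alternatives. Without a test 7 of the 10 reached 2-fold there, where 33.9% of genes did. Between E18.5 and adult 5 rose, Hspb6, Hspb8, Bag3, Unc45b and Smyd1, and Hspb1 fell, where 44.9% of all genes were called, 21.4% higher and 23.6% lower. Without a test 7 reached 2-fold, where 49.6% of genes did. Over this longest span 9 of 10 had higher TMM values with a median of 1.23, beside -0.05 for all genes. With library size alone 6 were higher and 4 lower (1347 and 7700 among all called genes), Hspb2, Hspb3 and Hspb7 having turned to -0.62, -0.16 and -0.18. Hspb1, Hspb6 and Hspb8 were called in the same direction under all 6 alternatives for this span. The comparisons share libraries and are not independent of one another.

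**Figure D4:**
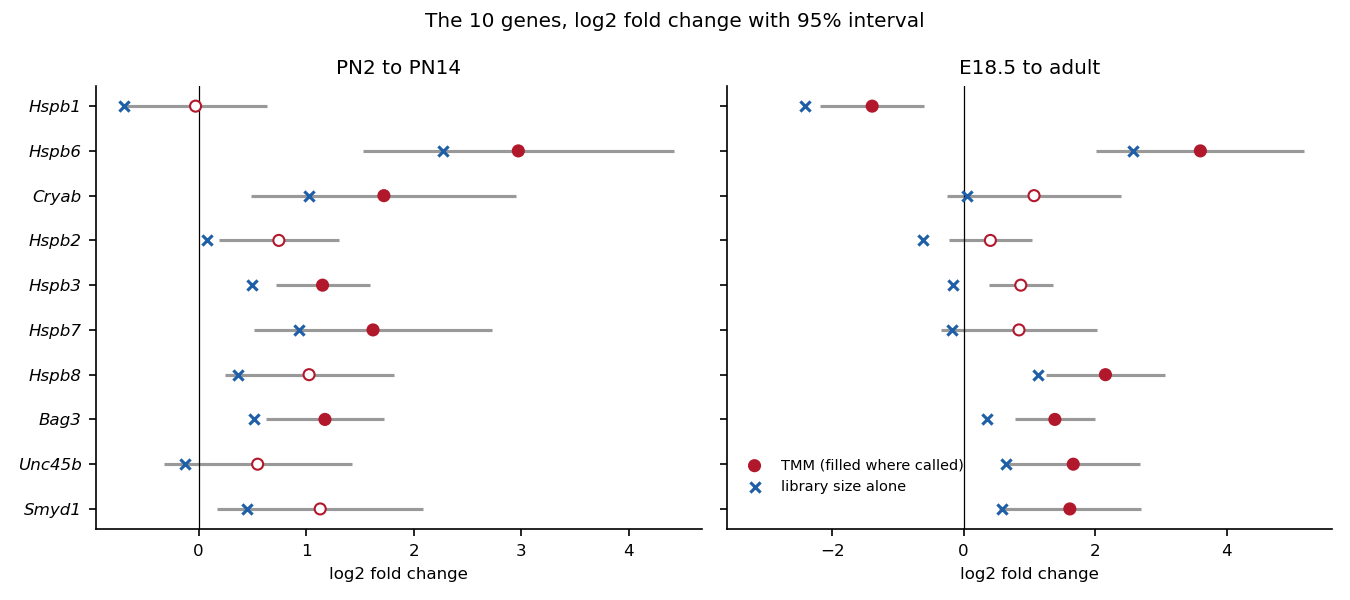
Log2 fold change of each gene (horizontal axis) from PN2 to PN14 and from E18.5 to adult, with TMM (circles, filled where called, with 95% intervals as bars) and with library size alone (crosses). From E18.5 to adult Hspb6 lies at 3.60 and Hspb1 at -1.39 with TMM, and the crosses lie to the left of the circles for all 10 genes in both panels.

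Lists of HSP70, J-domain, HSP90, BAG family and chaperonin genes had median log2 fold changes from PN2 to PN14 between 0.18 and 0.46. The median was 1.14 for the 10 and 1.24 for sarcomeric genes. It was -0.34 for the 4 tested genes of a further list, Cryaa, Hspb9, Hspb11 and Hspbap1. Cryaa and Hspb9 stayed at or below 0.20 FPKM and Hspbap1 encodes an associated protein, so this value does not describe the small heat shock protein family. In the other neighbouring intervals 0 genes of these lists were called. The counts below stand beside 11.8% of all genes called higher and 11.2% lower from PN2 to PN14, and 21.4% and 23.6% from E18.5 to adult. From PN2 to PN14, 4 of 15 HSP70 and HSP110 genes were called, all rising, with a list median log2 fold change of 0.41. They were Hspa1a, Hspa1b, Hspa1l and Hspa2, and the inducible Hspa1b rose by 2.02, from 1.81 FPKM at PN2 to 4.88 and 4.36 at PN14. Hspa1a and Hspa1b are near-identical copies whose reads the counting can split between them. The constitutive Hspa8, the most abundant of the list, had 967 FPKM at PN2 and 620 and 826 at PN14 and was not called (log2 fold change 0.23). Hspa2 and Hspa1a are named after their values were seen, as is Hspa8.

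Of 20 J-domain proteins, which hand clients to HSP70, 3 rose from PN2 to PN14 and 0 fell (median 0.35). Dnajb5 rose from 27.4 FPKM to 83.1 and 60.2, a log2 fold change of 2.07, and Dnajc27 by 1.91. From E18.5 to adult 10 of the 20 rose and 1 fell. Of 20 HSP90 genes and cochaperones 2 rose from PN2 to PN14, among them Cdc37l1 at 1.07, and 1 fell, the glucocorticoid-induced Fkbp5 at -1.06, with a median of 0.46. Unc45a, the widely expressed paralog of Unc45b, had between 4.85 and 9.09 FPKM, below Unc45b in every library.

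Of 15 genes of the BAG family and of chaperone-assisted selective autophagy, 2 rose from PN2 to PN14 and 0 fell (median 0.31). Synpo2, the BAG3-binding protein of the Z-disc, had 32.2 FPKM at PN2 and 57.9 and 48.3 at PN14 (log2 fold change 1.40), and the autophagosome protein gene Map1lc3b rose by 1.08. From E18.5 to adult 6 of the 15 rose and 1 fell. Of 13 chaperonin and prefoldin genes tested 1 rose from PN2 to PN14, Pfdn1 at 1.59 (median 0.18). FPKM moved in the same direction as TMM for each called gene named from these lists.

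Among 4 heat shock factor genes and Hsbp1, which encodes a protein that binds them, 1 was called from PN2 to PN14 (median 0.61). It was Hsf4, named after its values were seen, which had 0.14 FPKM at E18.5, 0.10 at PN2, 2.25 and 1.08 for the PN14 pair, 2.62 in PN28 and 6.32 in adult muscle (log2 fold change from PN2 to PN14 4.81, adjusted p = 0.00906, edgeR). Hsf1, the main factor of the stress response, stayed between 16.0 and 21.5 FPKM. With TMM its log2 fold change was -0.34 from E18.5 to PN2 and 0.61 from PN2 to PN14 (adjusted p = 0.0516, edgeR). It was 0.85 from PN2 to PN28 (adjusted p = 0.0291, edgeR) and 0.76 from E18.5 to adult (adjusted p = 0.0249, edgeR). These rises of Hsf1 were under the fold that a call required. Of 5 genes of the SMYD family and its partner Naca 0 were called over PN2 to PN14 (median -0.19). From E18.5 to adult 1 of the 5 was called, Smyd2, named after its values were seen, which rose by 2.39. A list of Cryaa, Hspb9, Odf1, Hspb11 and Hspbap1, which encodes an associated protein, had 4 genes tested, all but Odf1 (median -0.34) and 1 called, the lens gene Cryaa, which fell from 0.20 FPKM to 0.01 or less. Among 13 sarcomeric genes 4 rose and 2 fell from PN2 to PN14 (median 1.24). Myh1 and Actn3 rose by 5.77 and 3.998 and Myh8 and Myh3 fell by 7.10 and 4.16 on the log2 scale.

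Markers of fibre types and of other cell types also moved between the libraries, and their part in the results above was not tested. The summed FPKM of 9 fast fibre markers ran from 24427 at E18.5 to 118873 at PN28, and that of 7 slow fibre markers from 1356 in the adult to 4229 in PN14 replicate 1. Of the PN14 pair, replicate 1 was higher by FPKM in Hspb1, Hspb2, Hspb6, Hspb7, Cryab, Unc45b and Smyd1 and lower in Hspb3, Hspb8 and Bag3. Replicate 1 was also higher in slow fibre markers (4229 against 3356), fast fibre markers (105366 against 89931) and erythroid markers (2092 against 1153). It was lower in endothelial markers (156 against 238), Schwann cell markers (214 against 851, 4 genes) and smooth muscle markers (195 against 320, 6 genes), the last mainly through Acta2 (95.03 against 211). Smooth muscle markers summed to 392 FPKM at E18.5 and 76.4 in the adult, endothelial markers (5 genes) to 170 and 59.8, and fibroblast markers (6 genes) to 6087 and 516. With TMM 2 of the 6 smooth muscle, 0 of the 5 endothelial and 5 of the 6 fibroblast genes were called lower over that span. Satellite cell markers (3 genes) summed to 59.6 at E18.5 and 6.82 in the adult, macrophage markers (3 of 4 in the table) to 23.7 and 8.77, erythroid markers (4 genes) to 8423 and 370, and adipocyte markers (4 genes) to 374 and 363. The adipocyte sum was mostly Fabp4 (372 and 303 FPKM), and 3 of the 4 genes were called higher over that span, with Adipoq at 1.06 and 12.8, Cfd at 0.09 and 43.6 and Plin1 at 0.30 and 3.90 FPKM. At 0 was a single marker, an erythroid gene in the adult library.

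The genes closest in pattern were sought among 8830 other genes with a mean of at least 10 CPM, by the root mean square difference of centred log2 normalized CPM over the 6 libraries. A match of pattern is a description over 6 libraries. Closest to Hspb1 was Lfng (0.0956), to Hspb6 S100a1 (0.166), to Cryab Homer2 (0.0977), to Hspb2 Tmem204 (0.0646), to Hspb3 Ict1 (0.0697), and to Hspb7 Kcna5 (0.188). The closest to Hspb8 was Tprgl (0.0348), to Bag3 Tmem80 (0.0383), to Unc45b Mafg (0.0783), and to Smyd1 Entpd4 (0.0668). The next closest to Hspb2 was Dmpk (0.0692), the myotonic dystrophy kinase that HSPB2 was named for binding. Dmpk was picked after the values were seen, and the next closest genes of the other members are not given.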

How the data were processed

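The deposited table gives 2 values per gene and library. The authors ran TopHat 2.0.5 against mm9, and RSEM then estimated the fragments of each RefSeq gene. The expected counts deposited by the authors are whole numbers and not normalized. The FPKM values deposited by the authors are scaled to gene length and library size only. The 6 libraries hold between 125402932 and 157868359 counts on genes.

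After rounding, edgeR 4.0.16 in R 4.3.3 fitted the 6 libraries jointly (TMM, filterByExpr by stage, quasi-likelihood test), with 5 stages as groups. Only the PN14 pair left a residual degree of freedom (1), so the p-values assume that every stage varies as that pair does (common biological coefficient of variation 0.188, prior degrees of freedom 4.86). Calls needed a Benjamini-Hochberg adjusted p under 0.05 over all genes tested and a fold of at least 2. The standard error is the size of the log2 fold change divided by the root of the F statistic, and the 95% interval uses the total degrees of freedom. TMM factors ran from 0.714 (adult) to 1.45 (E18.5 and PN2). The 2-fold counts without a test took log2 of (normalized CPM + 0.1) for genes reaching 1 CPM in a compared stage. The fit was also run on simulated counts, drawn with a single spread for all genes and stages. That run cannot show whether the unreplicated stages vary as the PN14 pair does. Alternatives were library size alone, DESeq2 size factors, other filters on low counts, DESeq2's Wald test (version 1.42.0), edgeR's exact test, a pseudocount of 1 CPM and leaving out either PN14 library.

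Named from each list were the called genes with the largest rises and falls from PN2 to PN14 among those that reached 10 CPM in whichever stage was higher, at most 2 in each direction. A gene that this rule names is not reported here. The members, lists and thresholds were chosen with earlier results of these data known. Positions are from GENCODE M1 (mm9) and promoter sequences from RefSeq (GRCm38.p6). Python 3.11.15 and matplotlib 3.10.9 were used.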

Additional observations from a re-analysis of the deposited data

How the results depend on the processing

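Of 360 comparisons of a gene's log2 fold change with its value under an alternative, 323 kept their direction and their side of the threshold, 14 lost and 14 gained a call, and 9 turned. All 9 turned with library size alone: Unc45b from PN2 to PN14 (-0.13), Hspb2, Hspb8 and Cryab from PN14 to PN28 (-0.041, -0.050 and -0.17), Smyd1 from PN28 to adult (-0.11), Hspb3 from PN2 to PN28 (-0.038), and Hspb2, Hspb3 and Hspb7 from E18.5 to adult (-0.62, -0.16 and -0.18). That scaling moved the median over all tested genes, in log2 units, to -0.66 from PN2 to PN14, -0.92 from PN2 to PN28 and -1.08 from E18.5 to adult.

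Of the 10 genes, library size alone called 2 from PN2 to PN14, 2 from PN2 to PN28 (Hspb6 rising and Hspb1 falling) and 3 from E18.5 to adult (against 5, 4 and 6). A filter at a mean of 1 CPM called 3 from PN2 to PN14, and the Wald test of DESeq2 and the exact test each gave 7 calls from PN2 to PN28. Counted without a test, library size gave 1, 2 and 3 genes of at least 2-fold in the same spans (against 7 each). Leaving out either PN14 library gave from 5 to 7 such genes from PN2 to PN14, and from 0 to 1 from PN14 to PN28, the gene being Hspb6 without replicate 1 (log2 difference 1.07, against -0.08 without replicate 2). The cause was not tested.

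Over all genes, calls from E18.5 to PN2 were 241 with library size alone, 97 with no filter, 165 with DESeq2's Wald test and 346 with the exact test (against 5). From PN14 to PN28 they were 262, 56, 135 and 241 (against 3), and from PN28 to adult 868, 835, 808 and 1146, or 13 with the filter at a mean of 1 CPM (against 88). From PN2 to PN28 library size alone called 7151 (against 4566). No paired analysis was possible because replicate numbers exist within PN14 only and the other stages have 1 library each. Having 1 library at 4 of 5 stages limits the precision.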
